A study of Mus musculus with 6 samples.

Results

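Amino acid transporter genes were followed in whole mouse kidney on 6 single-colour Agilent microarrays. The set holds every gene of the solute carrier families Slc1, Slc3, Slc7, Slc36, Slc38 and Slc43 whose symbol has the form Slc1a, Slc3a, Slc7a, Slc36a, Slc38a or Slc43a plus a digit, together with Slc6a14, Slc6a15, Slc6a18, Slc6a19, Slc6a20a, Slc6a20b and Slc16a10. Members were picked by name, with no measured value in the rule. Of the 23785 gene symbols on the array, 51 met it, and 45 of these were among the 17136 genes bright enough to test. Of the 51, 49 encode transporters. Slc7a6os and Slc36a1os are genes on the opposite strand that share only the name.

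Total RNA was taken from kidneys of C57BL/6J mice killed at 32 weeks. The 3 arrays labelled Pck1-CKO came from mice with both floxed Pck1 alleles and a γGT-Cre transgene (Pck1 flox/flox/γGT-Cre tg/+), which directs recombination to the proximal tubule. The 3 arrays labelled WT came from littermates matched for age and sex. Littermates counted as controls had the genotype Pck1 flox/+, alone or with the transgene (Pck1 flox/+/γGT-Cre tg/+), or Pck1 flox/flox without it. All of these carry a floxed allele, and which of them an array holds is not given. Pck1 encodes cytosolic phosphoenolpyruvate carboxykinase, an enzyme that turns the carbon of amino acids such as glutamine into glucose. Whether each array is a separate mouse is not stated, so the p-values cover the spread among these 6 samples, which may be technical.

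The proximal tubule takes back nearly all amino acids that the glomerulus filters. Carriers in the brush border draw them into the cell with sodium, protons or in exchange for another amino acid, and exchangers and uniporters in the basolateral membrane pass them on to the blood. Some carriers are heteromers in which a heavy chain (Slc3a1 or Slc3a2) brings a light chain of family Slc7 to the membrane. Inherited loss of such carriers causes cystinuria, Hartnup disorder, lysinuric protein intolerance and dicarboxylic aminoaciduria. Other members serve each cell's own supply, or belong to brain, muscle or fat.

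Values are log2 processed signals minus the 75th percentile of the array, so a value of 0 is the signal at that percentile. They compare arrays for 1 gene and do not rank genes, because probes differ in brightness. Between 37116 (WT 1) and 38708 (WT 2) probes per array lay well above background, and 0 spots were saturated. Pck1 itself had 6.29, 6.32 and 5.63 on the WT arrays, beside 6.44, 6.60 and 6.90 on the Pck1-CKO arrays. Pck1 was thus no lower under the Pck1-CKO label, at a log2 change of 0.56 ± 0.22 (SE, limma adjusted p = 0.152). The array has 1 Pck1 probe, and whether it lies inside the deleted part is not known here, so it does not check the labels. Higher and lower below mean under the Pck1-CKO label. All 6 arrays shared 1 slide, the WT arrays in row 1 and the Pck1-CKO arrays in row 2, so an effect of the row and one of the genotype cannot be told apart. The arrays are kidney by their markers. All 12 proximal tubule markers passed the background filter, with a mean log2 signal of 6.87 to 6.94 in WT, beside 6.84 to 6.89 in Pck1-CKO, and 0 of the 12 passed the limma test (unadjusted p under 0.05 in 1 higher and 1 lower gene). Of the other kidney markers, 1 of 7 of the late proximal tubule (S3), 1 of 5 of the thick ascending limb and distal tubule, 2 of 6 of the collecting duct and 2 of 5 of podocytes fell, and 1 of the collecting duct rose. Of all genes tested, 3.70% fell and 4.34% rose. The part of these markers in the results was not tested. Markers of fat cells and of sex differences did differ between the groups and are given beside the genes they moved with.

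The amino acid transporters moved in both directions, and most changes were small. Of the 45 genes tested, 7 passed an adjusted p of 0.05 in the limma fit over all genes, which is 15.6%, beside 8.04% of all genes tested. Slc1a5, Slc1a1, Slc1a3 and Slc7a1 rose, and 4.34% of all genes rose. Slc7a12, Slc38a1 and Slc7a2 fell, and 3.70% of all genes fell. The groups did not overlap for 19 of the 45 (42.2%), beside 38.3% of all genes. An unadjusted p under 0.05 was reached by 14 higher and 5 lower members, beside 31.2% of all genes in either direction. The median log2 change was 0.02 over the members and 0.01 over all genes, with a range of -2.08 to 3.83 over the members. Whole kidney RNA cannot tell fewer cells of a type from less RNA per cell, and this holds for every gene below.

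**Figure D1:**
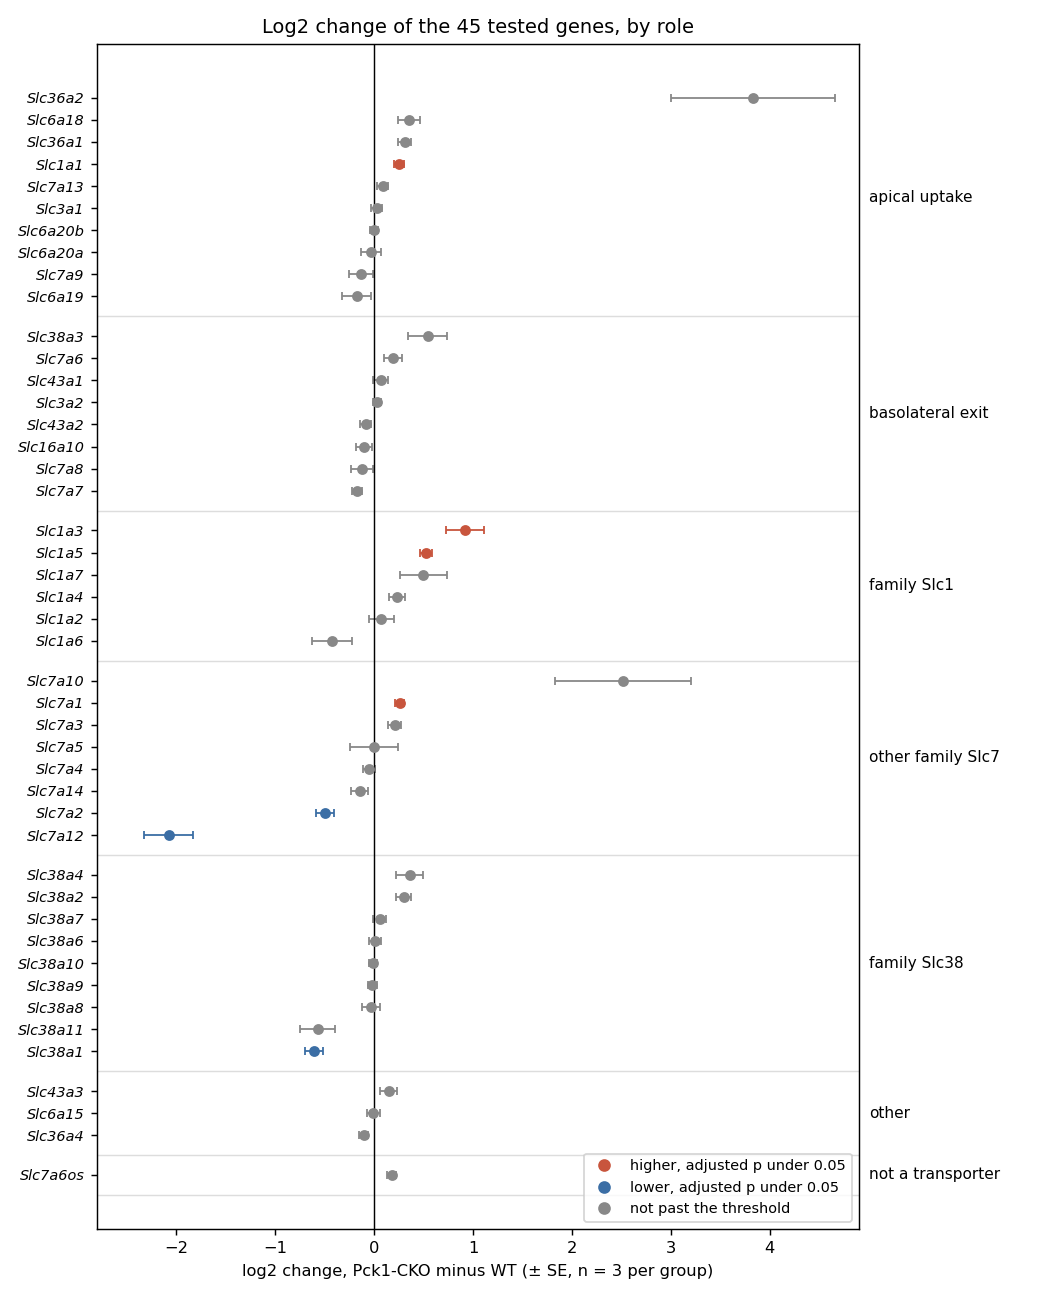
Log2 change of each tested amino acid transporter gene (Pck1-CKO minus WT, bars are the standard error, 3 arrays per group), grouped by role, with genes past an adjusted p of 0.05 marked. The marked genes lie between -2.08 (Slc7a12) and 0.92 (Slc1a3), and Slc36a2 and Slc7a10 have the largest positive values, with wide errors.

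**Figure D2:**
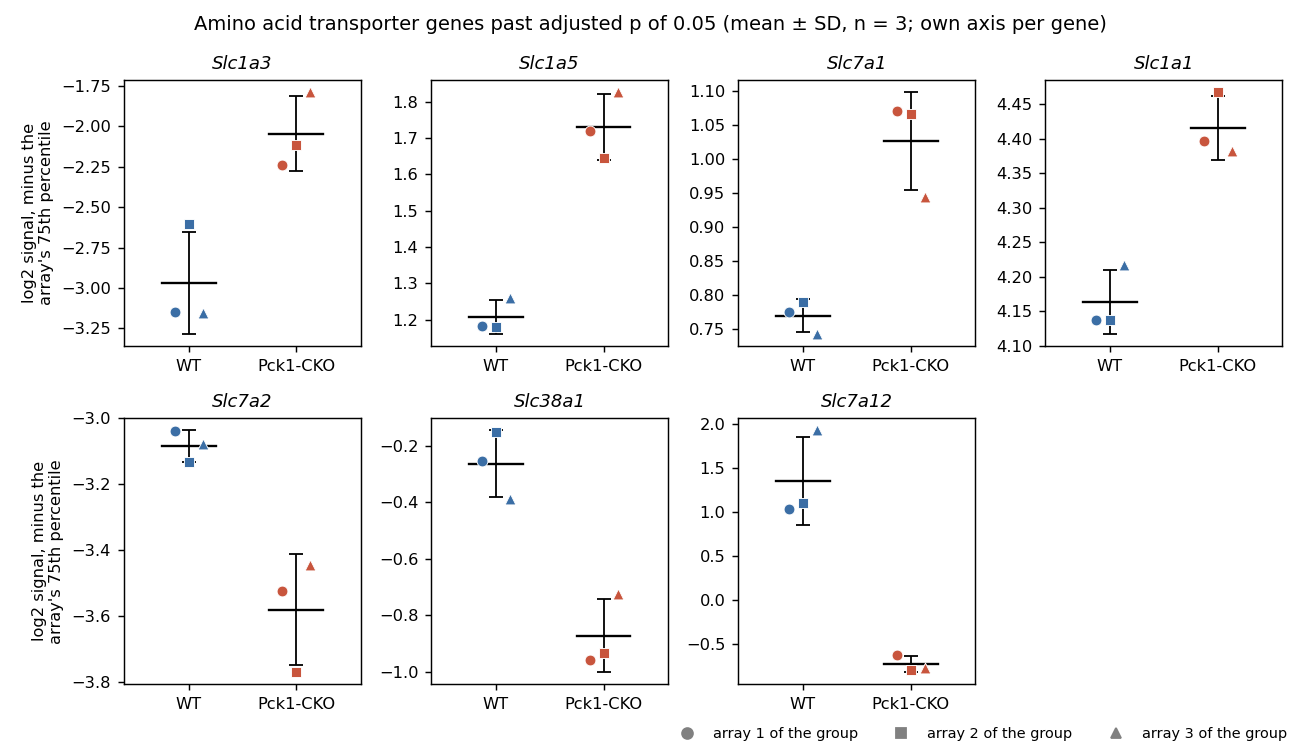
Log2 signal minus the array's 75th percentile for the 7 transporter genes past the threshold, 1 point per array. In each of the 7 all 3 arrays of one group lie above all 3 of the other.

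Family Slc1 holds the sodium-coupled glutamate carriers and the neutral amino acid exchangers ASCT1 and ASCT2, and it held 3 of the 4 transporters that rose. Slc1a5 encodes ASCT2, which exchanges glutamine, alanine, serine and other neutral amino acids. Its log2 signal was 1.18, 1.18 and 1.26 on the WT arrays, beside 1.72, 1.65 and 1.83 on the Pck1-CKO arrays. Every Pck1-CKO array was above every WT array, by more than the spread within either group. Slc1a5 rose by 0.52 ± 0.06 on the log2 scale (SE, adjusted p = 0.0189), which is 1.44-fold. Slc1a4, which encodes the related exchanger ASCT1, had 1.42, 1.34 and 1.15 in WT, beside 1.59, 1.47 and 1.56 in Pck1-CKO. These groups lay close together, and the log2 change of 0.23 ± 0.08 did not pass (adjusted p = 0.118).

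Slc1a3 encodes EAAT1 (GLAST), the glutamate transporter best known from glia. It was a dim probe with -3.15, -2.60 and -3.15 in WT, beside -2.24, -2.11 and -1.79 in Pck1-CKO. WT 2 lay above the other WT arrays but below all Pck1-CKO arrays. Slc1a3 rose by 0.92 ± 0.19 (adjusted p = 0.0468), 1.89-fold, and by 0.60 after normexp background correction, which shrank the changes of several dim probes. Slc1a1 encodes EAAT3, the glutamate and aspartate carrier of the proximal tubule brush border, whose loss causes dicarboxylic aminoaciduria. Its signal was 4.14, 4.14 and 4.22 in WT, beside 4.40, 4.47 and 4.38 in Pck1-CKO. The groups were narrow and apart, and Slc1a1 rose by 0.25 ± 0.05 (adjusted p = 0.0379), 1.19-fold. Its probes differed in size of change. A second Slc1a1 probe gave 0.08 ± 0.05, and the mean of both probes gave 0.17, which did not pass. The remaining glutamate transporters did not pass. Slc1a2, the main glial carrier EAAT2, had a log2 change of 0.07, and the Slc1a7 change was 0.50 ± 0.23 (adjusted p = 0.209), or 0.08 after normexp. Slc1a6 alone in the family was negative, at -0.42 ± 0.20 (adjusted p = 0.214), or -0.03 after normexp. Of the 6 Slc1 genes other than Slc1a1, 2 rose and 0 fell, beside 4.34% and 3.70% of all genes. Among these 6, 5 changes were positive, and the median was 0.37 (0.16 after normexp).

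Slc7a12 had the largest decrease of any transporter past the threshold. It encodes Asc-2, a light chain for neutral amino acids that in mouse kidney is known to be higher in females. Its signal was 1.03, 1.11 and 1.92 on the WT arrays, beside -0.62, -0.79 and -0.76 on the Pck1-CKO arrays. The Pck1-CKO arrays lay close together and far below WT, while WT 3 stood above the other WT arrays. Slc7a12 fell by 2.08 ± 0.25 on the log2 scale (adjusted p = 0.02), which is 4.22-fold, and by 1.79 without WT 3. Slc7a13, the light chain AGT1 of the late proximal tubule that carries cystine, aspartate and glutamate, is known to be higher in males. It had 5.03, 4.94 and 4.84 in WT, beside 5.03, 5.0 and 5.04 in Pck1-CKO, and its log2 change of 0.09 ± 0.06 did not pass (adjusted p = 0.343).

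Some other genes with a sex difference in mouse kidney moved beside Slc7a12. Of 5 genes listed as female-biased, 2 fell and 0 rose (3.70% and 4.34% of all genes), with a median log2 change of -0.43. The change was negative in 4 of the 5, while that of Cyp2a4 was 0.23 ± 0.17 (limma adjusted p = 0.41). The mean signal of the 5 genes was 0.87, 0.87 and 1.15 in WT, beside 0.10, 0.10 and 0.31 in Pck1-CKO. Kynu, which encodes kynureninase, had -1.46, -1.36 and -0.53 in WT, beside -3.24, -2.90 and -3.05 in Pck1-CKO, and it fell by 1.95 ± 0.26 (adjusted p = 0.0247). As with Slc7a12, WT 3 was the highest array. Prlr, the prolactin receptor gene, had 1.06, 1.03 and 0.94 in WT, beside -0.69, -0.92 and -0.11 in Pck1-CKO, and it fell by 1.59 (adjusted p = 0.0236). Of 10 genes listed as male-biased, 3 rose and 0 fell (4.34% and 3.70% of all genes), with a median of 0.32. The change was positive in 8 of the 10, while those of Kap and Acsm3 were -0.06 and -0.06. Odc1, which encodes ornithine decarboxylase, rose by 0.64 (adjusted p = 0.0442), and the P450 gene Cyp2j13 and the organic anion carrier gene Slco1a1 rose by 0.58 and 0.52 (adjusted p = 0.0199 and 0.0392). Slco1a1 did not pass with quantile scaling. All 4 Y-linked genes tested were measured in both groups. With limma 0 of them passed, and 1 higher and 1 lower gene had an unadjusted p under 0.05, while Xist was not well above background on any of the 6 arrays. The part of this sex-biased pattern in the decrease of Slc7a12 was not tested.

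**Figure D3:**
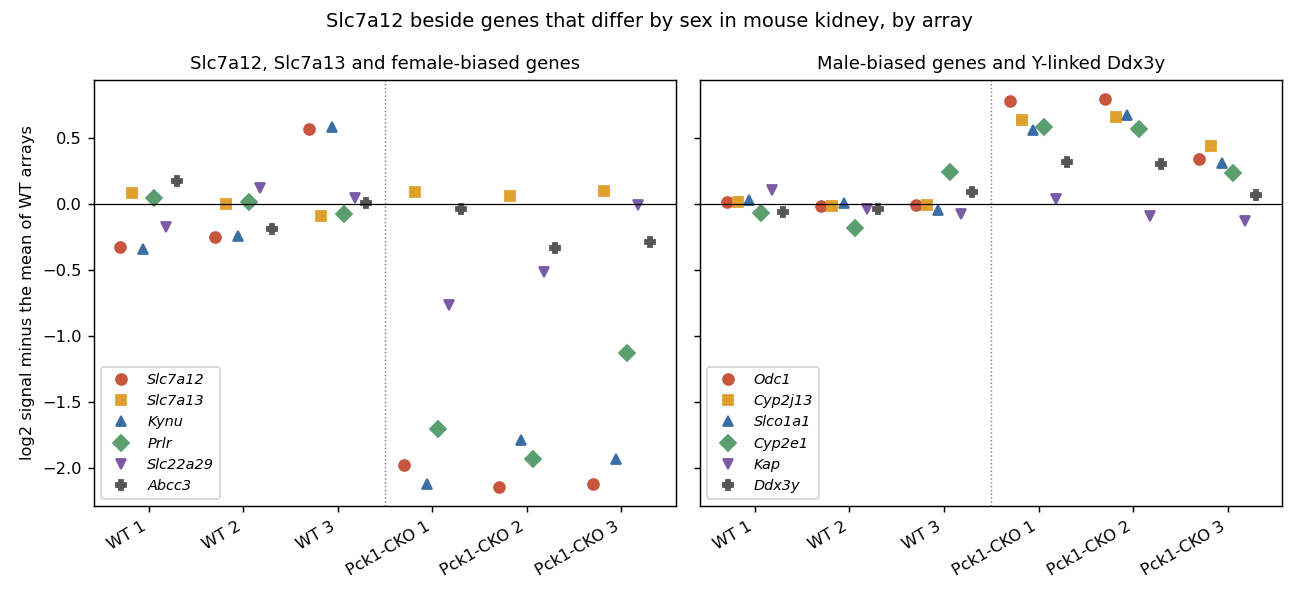
Log2 signal of each array minus the mean of the WT arrays, 1 point per gene and array, for Slc7a12, Slc7a13 and 4 female-biased genes (left) and for 5 male-biased genes and the Y-linked Ddx3y (right). Slc7a12, Kynu and Prlr lie below the WT mean on all 3 Pck1-CKO arrays, at mean log2 changes of -2.08, -1.95 and -1.59, while Slc7a13 stays near it. Cyp2a4, also listed as female-biased, is not plotted and had a log2 change of 0.23.

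The cationic amino acid transporters carry arginine, lysine and ornithine, and those that passed the test moved in opposite directions. Slc7a1 encodes CAT1, the broadly expressed arginine transporter. Its signal was 0.78, 0.79 and 0.74 in WT, beside 1.07, 1.07 and 0.94 in Pck1-CKO. Pck1-CKO 3 was nearest to WT but still above it, and Slc7a1 rose by 0.26 ± 0.05 (adjusted p = 0.0408), 1.2-fold. Slc7a2 encodes CAT2, the carrier of liver, muscle and activated macrophages. It had -3.04, -3.13 and -3.08 in WT, beside -3.53, -3.77 and -3.45 in Pck1-CKO. Slc7a2 was dim, yet the groups were apart, and it fell by 0.50 ± 0.09 (adjusted p = 0.0376), or by 0.23 after normexp. Slc7a3, which encodes CAT3, had -3.77, -3.68 and -3.71 in WT, beside -3.55, -3.40 and -3.60 in Pck1-CKO. Its groups did not overlap either, but the change of 0.21 ± 0.06 did not pass (adjusted p = 0.0968). Slc7a4 and Slc7a14, relatives whose transport is less certain, gave -0.05 and -0.15, neither past the test. Slc7a5 encodes LAT1, the exchanger that brings leucine and other large neutral amino acids into growing cells. It was dim, and its change was 0.00 with a wide error of 0.24 (adjusted p = 0.995). Of the 8 tested genes in this group, which includes Slc7a12 and Slc7a10, 1 rose and 2 fell, beside 4.34% and 3.70% of all genes. The median of the 8 was -0.03, or 0.02 with quantile scaling and 0.05 with median scaling.

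Family Slc38 holds the sodium-coupled neutral transporters of systems A and N. Slc38a1 encodes SNAT1, which takes up glutamine and alanine. It had -0.25, -0.15 and -0.39 in WT, beside -0.96, -0.93 and -0.72 in Pck1-CKO. All Pck1-CKO arrays lay below all WT arrays, and Slc38a1 fell by 0.61 ± 0.09 (adjusted p = 0.0293), 1.52-fold. A second probe for Slc38a1 gave -0.53 ± 0.14 and did not pass in a limma fit over probes instead of genes (adjusted p = 0.0822), where 4.29% of all probes passed. In that fit the probes of Slc1a5, Slc7a12, Slc38a1 and Slc7a2 reported here passed, and those of Slc1a1, Slc1a3 and Slc7a1 did not (adjusted p = 0.0557, 0.0575 and 0.0592). Slc38a2 encodes SNAT2, the system A carrier that cells induce when amino acids are short. It had 1.62, 1.81 and 1.64 in WT, beside 1.91, 1.95 and 2.11 in Pck1-CKO, higher on each Pck1-CKO array, but the change of 0.30 ± 0.08 did not pass (adjusted p = 0.0708). Slc38a3 encodes SNAT3, the basolateral carrier that brings glutamine into proximal tubule cells for ammonia production. Its WT arrays were spread, at 0.80, 0.71 and 1.40, and overlapped the Pck1-CKO arrays, at 1.64, 1.54 and 1.35. The change of 0.54 ± 0.20 did not pass (adjusted p = 0.131). Slc38a11, a dim orphan member, had -4.54, -4.59 and -4.63 in WT, beside -5.55, -4.88 and -5.03 in Pck1-CKO, where 2 of 3 arrays were well above background. Its change was -0.57 ± 0.18 (adjusted p = 0.0958), and -0.09 after normexp. Slc38a4, the SNAT4 gene of liver, gave 0.36 ± 0.13 (adjusted p = 0.136). A second Slc38a4 probe gave 0.34 ± 0.08 and did not pass in the limma fit over probes (adjusted p = 0.0766). Slc38a6, Slc38a7, Slc38a8, Slc38a9 (the lysosomal arginine sensor of mTORC1) and Slc38a10 lay between -0.03 and 0.06, with adjusted p of at least 0.603. Of the 9 tested genes other than Slc38a3, 0 rose and 1 fell, beside 4.34% and 3.70% of all genes.

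In the brush border group 1 of 10 genes, Slc1a1, rose and 0 fell, with a median change of 0.06. Of all genes tested, 4.34% rose and 3.70% fell. The group had 3 genes higher with median scaling, 3 with normexp and 2 with the filter on all 6 arrays. The genes for cystine and dibasic amino acid uptake, which cause cystinuria when lost, did not pass. Slc3a1, the heavy chain rBAT, had 5.19, 5.17 and 5.34 in WT, beside 5.23, 5.27 and 5.28 in Pck1-CKO, a change of 0.02 ± 0.06 (adjusted p = 0.8). Its light chain Slc7a9 gave -0.14 ± 0.12 (adjusted p = 0.478). Slc6a19 encodes B0AT1, the neutral amino acid carrier whose loss causes Hartnup disorder. It had 3.56, 3.68 and 3.94 in WT, beside 3.35, 3.51 and 3.79 in Pck1-CKO, overlapping ranges with a change of -0.18 ± 0.15 (adjusted p = 0.45). Slc6a18, the related carrier B0AT3 of the late proximal tubule, had 3.59, 3.61 and 3.95 in WT, beside 4.14, 4.07 and 4.0 in Pck1-CKO. Its groups touched without overlapping, and the change of 0.35 ± 0.11 did not pass (adjusted p = 0.0957). A second Slc6a18 probe gave 0.18 ± 0.09 (adjusted p = 0.256 in the limma fit over probes). The imino acid carrier genes Slc6a20a and Slc6a20b gave -0.03 and 0.00. Slc36a1 encodes PAT1, a proton-coupled carrier of proline, glycine and alanine. It had 0.07, 0.19 and 0.31 in WT, beside 0.45, 0.50 and 0.54 in Pck1-CKO, a change of 0.31 ± 0.07 (adjusted p = 0.0547). A second Slc36a1 probe, dim at a WT mean of -3.48, gave -0.08, and the mean of its probes 0.11.

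Slc36a2 and Slc7a10 had the largest positive changes of all members, and neither passed the test. Slc36a2 encodes PAT2, a proton-coupled glycine and proline carrier of the brush border that is also a surface marker of brown and beige fat cells. Its signal was -6.26, -3.34 and -3.38 in WT, beside -0.65, -0.82 and -0.03 in Pck1-CKO. WT 1 was far below the other WT arrays, 2 of 3 WT arrays were well above background, and all Pck1-CKO arrays lay above all WT arrays. The log2 change was 3.83 ± 0.83 (adjusted p = 0.0506), 14.2-fold. Without WT 1 it was 2.86 and passed (adjusted p = 0.0422), and after normexp it was 2.11 and passed (adjusted p = 0.00504). Slc7a10 encodes Asc-1, a carrier of small neutral amino acids that marks the surface of white fat cells. It had -7.68, -5.38 and -5.52 in WT, the lowest on WT 1 and again well above background on 2 of 3 arrays, beside -4.04, -4.04 and -2.96 in Pck1-CKO. Its change was 2.51 ± 0.69 (adjusted p = 0.0765), 1.77 without WT 1 (adjusted p = 0.107) and 0.68 after normexp, where it passed (adjusted p = 0.0239).

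Fat cell markers differed between the same arrays. All 10 adipocyte markers had a positive change, with a median of 2.97. Of the 10, 3 passed (Ucp1, Cidea and Fabp4), beside 8.04% of all genes. The mean signal of the 10 was -1.31, 0.68 and 0.51 in WT, beside 2.43, 2.30 and 2.90 in Pck1-CKO. WT 1 was thus lowest, as for Slc36a2 and Slc7a10. Ucp1, the uncoupling protein of brown fat, had -3.59, -0.47 and -0.70 in WT, beside 3.84, 3.73 and 3.37 in Pck1-CKO. Plin1, which coats the lipid droplet, had -5.24, -2.56 and -2.90 in WT, beside -0.42, -0.80 and 0.14 in Pck1-CKO. Lep was nearly level, at a log2 change of 0.04. Of 5 adrenal cortex markers, Cyp11a1 and Cyp11b1 were not well above background on any array. The 3 tested, Star, Cyp21a1 and Hsd3b1, were detected in both groups. With limma 0 of them passed, and 0 higher and 1 lower gene had an unadjusted p under 0.05. The part of fat cell RNA in the values of Slc36a2 and Slc7a10 was not tested.

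**Figure D4:**
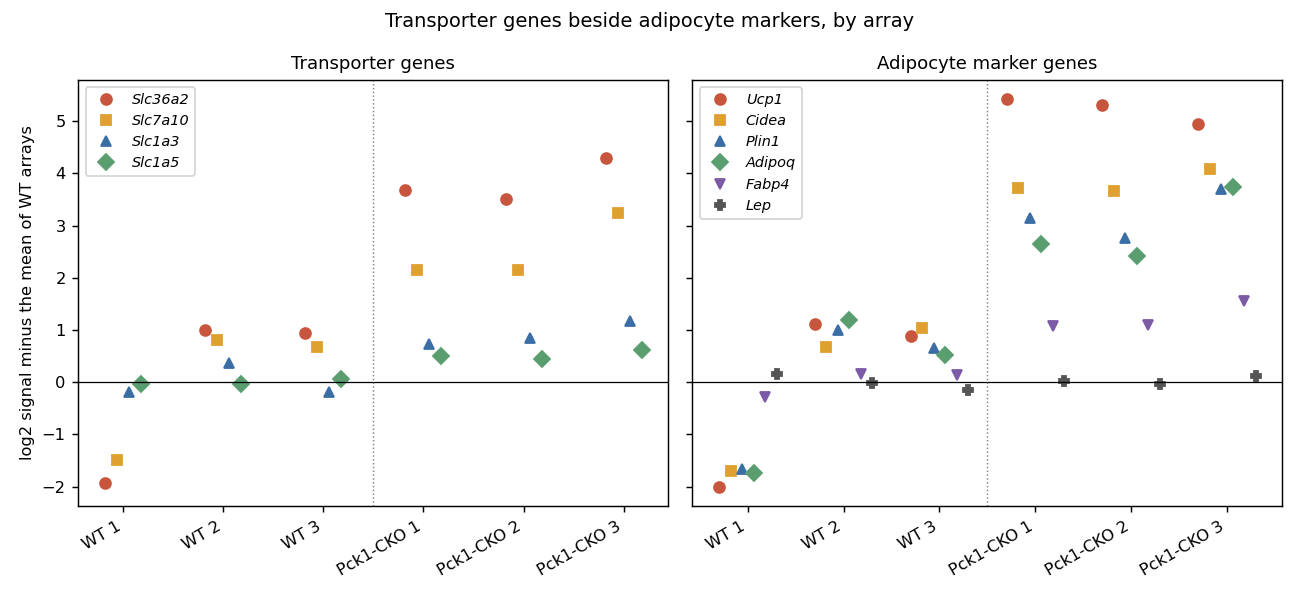
Log2 signal of each array minus the mean of the WT arrays, 1 point per gene and array, for Slc36a2, Slc7a10, Slc1a3 and Slc1a5 (left) and 6 adipocyte markers (right). WT 1 is the lowest array for Slc36a2, Slc7a10 and the plotted markers other than Lep, which is level over all 6 arrays.

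On the basolateral side 0 of 8 genes passed the limma test, beside 8.04% of all genes tested. An unadjusted p under 0.05 was reached by 1 higher and 1 lower gene, beside 31.2% of all genes in either direction. The median change of the 8 genes was -0.03, and 0.05 when arrays were scaled to their median. Slc7a7 encodes y+LAT1, the exchanger for dibasic amino acids that is lost in lysinuric protein intolerance. It had 6.09, 6.11 and 6.18 in WT, beside 5.88, 5.97 and 6.02 in Pck1-CKO, lower on every Pck1-CKO array by a small margin. The change of -0.17 ± 0.05 did not pass (adjusted p = 0.0896), and it was -0.10 when arrays were scaled to their median. The heavy chain 4F2hc, encoded by Slc3a2, gave 0.03 ± 0.04 (adjusted p = 0.679). Its partner LAT2, encoded by Slc7a8, gave -0.13 ± 0.11 (adjusted p = 0.48). Slc7a6, which encodes y+LAT2, gave 0.19 (adjusted p = 0.222). The uniporters for aromatic and branched-chain amino acids, TAT1 (Slc16a10), LAT3 (Slc43a1) and LAT4 (Slc43a2), lay between -0.10 and 0.07. A second Slc16a10 probe gave -0.24 (adjusted p = 0.0885). Outside the roles above, Slc36a4, the nucleobase carrier gene Slc43a3 and the neutral carrier gene Slc6a15 gave -0.10, 0.15 and -0.01, none past the test. Slc7a6os, the gene opposite Slc7a6, had 0.39, 0.36 and 0.46 in WT, beside 0.61, 0.61 and 0.55 in Pck1-CKO, a change of 0.18 ± 0.05 (adjusted p = 0.0638).

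The 6 members left untested were not well above background on any array. They were Slc7a11, the cystine and glutamate exchanger xCT, Slc6a14, the broad carrier ATB0,+, Slc38a5, which encodes SNAT5, Slc36a3, Slc7a15 and Slc36a1os. Where the tested members had more than 1 tested probe, which was so for 15 genes, the changes had the same sign in 9.

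Lists of genes that work with these transporters follow. Over all genes tested, 8.04% passed with limma and 31.2% had an unadjusted p under 0.05. Among partner proteins, brush border peptidases and peptide transporters 1 of 12 tested genes rose and 0 fell, with a median of 0.04. It was Lrrc8a, a subunit of the volume-regulated anion channel that also releases organic osmolytes, with 4.12, 4.15 and 4.17 in WT, beside 4.42, 4.43 and 4.30 in Pck1-CKO, a rise of 0.24 ± 0.05 (adjusted p = 0.0479). Lrrc8a did not pass with quantile scaling, nor with the mean of probes, where the list had 0 genes higher and 1 lower. Collectrin, the Cltrn product that brings B0AT1 to the brush border, gave 0.01 (adjusted p = 0.933). Among other amino acid and amine carriers 1 of 11 rose and 0 fell, with a median of 0.11. It was Slc6a9, the glycine transporter GLYT1, with 2.88, 2.85 and 3.09 in WT, beside 3.60, 3.59 and 3.42 in Pck1-CKO. Slc6a9 rose by 0.59 ± 0.09 (adjusted p = 0.0283), and no Pck1-CKO array reached down to a WT array. Of 11 mitochondrial amino acid carriers tested with limma 0 passed, and 1 higher and 0 lower genes had an unadjusted p under 0.05. Slc25a2, which carries ornithine, had the lowest p, at a change of 0.33 (adjusted p = 0.123). Of 21 genes of amino acid sensing by mTORC1 0 passed with limma, and 6 higher and 3 lower genes had an unadjusted p under 0.05. Nprl3, a subunit of the GATOR1 complex, had the lowest p there, at 0.17 ± 0.05 (adjusted p = 0.0697).

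ATF4 is the transcription factor that cells raise when amino acids run short, and several transporters, among them Slc7a11, Slc38a2, Slc7a5 and Slc1a5, are known targets. Of 21 genes of the ATF4 pathway that are no transporters, 3 rose and 1 fell, with a median of 0.16. Over all genes tested 4.34% rose and 3.70% fell. Of the 21 changes 13 were positive and 8 negative. The negative ones were those of Phgdh, Stc2, Ddit3, Chac1, Trib3, Sesn2, Cebpg and Vldlr. Atf4 itself had 5.24, 5.30 and 5.25 in WT, beside 5.59, 5.61 and 5.54 in Pck1-CKO and rose by 0.31 ± 0.04 (adjusted p = 0.0239). The serine synthesis genes moved apart. Psat1, the aminotransferase, had 2.05, 2.13 and 2.15 in WT, beside 2.98, 3.10 and 2.83 in Pck1-CKO and rose by 0.86 ± 0.08 (adjusted p = 0.0148). Phgdh, the dehydrogenase of the first step, had 3.06, 3.11 and 2.98 in WT, beside 2.25, 2.21 and 2.45 in Pck1-CKO and fell by 0.74 ± 0.08 (adjusted p = 0.0154). The other gene that rose was Nupr1, a stress-response gene, by 0.34 (adjusted p = 0.0499). Nupr1 did not pass with quantile scaling, the deposited value table, the mean of probes or flagged spots kept, and the list then had 2 genes higher. Without Pck1-CKO 3 the list had 7 genes higher and 2 lower, and without WT 1, WT 2, Pck1-CKO 1 or Pck1-CKO 2 it had 0 past the limma test.

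ATF4 dimers bind the C/EBP-ATF response element, searched here as TGATGNAAN on both strands in RefSeq promoters of GRCm38.p6, which run from 250 bases before to 50 after a gene's start. The promoter table held 38 of the 51 members, including 3 of the 7 past the threshold (Slc1a1, Slc1a3 and Slc7a1). The letters were found in 3.95% of all 32851 promoters and in 4 of the 49 promoters of these members. By gene that is 4.50% of 27025 genes and 3 of the 38 members, Slc7a11, Slc1a4 and Slc7a7. Slc1a4 and Slc7a7 did not pass the test, and Slc7a11 was too dim to be tested. A motif of HNF1, a factor of proximal tubule genes, was searched the same way and was in 0.399% of all promoters and in 0 of the members' 49. For each of the 3 genes 1 promoter is shown, because these are the members whose start carries the letters. All lie on the minus strand, at chr3:50443564-50443863 for Slc7a11, chr11:20332664-20332963 for Slc1a4 and chr14:54417895-54418194 for Slc7a7, and capitals mark the matches.
Slc7a11: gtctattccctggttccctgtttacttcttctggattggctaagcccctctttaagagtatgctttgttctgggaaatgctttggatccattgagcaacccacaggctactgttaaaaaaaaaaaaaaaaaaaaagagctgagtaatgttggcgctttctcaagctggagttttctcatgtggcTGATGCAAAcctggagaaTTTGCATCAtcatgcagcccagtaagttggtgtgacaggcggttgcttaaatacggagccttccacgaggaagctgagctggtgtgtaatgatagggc
Slc1a4: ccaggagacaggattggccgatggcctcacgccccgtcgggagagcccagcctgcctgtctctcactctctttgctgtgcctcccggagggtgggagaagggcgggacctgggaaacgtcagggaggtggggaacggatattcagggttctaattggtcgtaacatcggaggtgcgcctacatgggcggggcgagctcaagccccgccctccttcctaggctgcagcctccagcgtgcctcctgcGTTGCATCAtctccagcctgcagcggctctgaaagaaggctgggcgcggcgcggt
Slc7a7: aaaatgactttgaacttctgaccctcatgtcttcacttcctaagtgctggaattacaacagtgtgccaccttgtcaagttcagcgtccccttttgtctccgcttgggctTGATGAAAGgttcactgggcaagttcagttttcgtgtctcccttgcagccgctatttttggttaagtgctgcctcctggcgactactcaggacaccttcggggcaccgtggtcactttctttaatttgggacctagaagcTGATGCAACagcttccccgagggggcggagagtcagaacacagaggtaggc
Slc7a11 and Slc7a7 hold the letters more than once, and Slc1a4 holds them once, next to its start. Slc7a7 has another matching window, and the one with more matches is shown. The windows overlap and share the last match marked, so the same site is counted in both promoters. Slc7a11 was not detected, Slc1a4 had a change of 0.23 and Slc7a7 of -0.17. A match describes the letters and does not show binding, and no match says only that the letters are not in this window.

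The 7 calls depended on the filter and on single arrays. With all 6 arrays but no filter on dim probes 0 of the 7 passed with limma, at an adjusted p of 0.0529 to 0.0992. With the filter 0 of the 7 passed without WT 1, without WT 2, without Pck1-CKO 1 or without Pck1-CKO 2, where their adjusted p ran from 0.0651 to 0.153, and the count over all genes fell to between 25 and 70. Of the 14 other genes named above as risen or fallen, Ucp1 and Cidea passed without WT 1 and 0 did without the other 3 arrays just named, while 10 passed without WT 3 and 13 without Pck1-CKO 3. With all 6 arrays but no filter on dim probes, only Phgdh and Psat1 of these 14 passed. With the replicate number as a block 0 of the 14 passed with limma. Without WT 3 Slc1a5, Slc7a12, Slc38a1 and Slc1a1 passed, and without Pck1-CKO 3 all but Slc1a3 did. None changed direction under any of the 17 alternatives. Over these the log2 change of Slc1a5 ran from 0.47 to 0.60, that of Slc7a12 from -2.24 to -1.79 and that of Slc38a1 from -0.71 to -0.53. The highest unadjusted p of any of the 7 under any alternative was 0.015, for Slc1a3. The 10 members next in p passed under fewer alternatives. Slc36a1 passed under 6, Slc36a2 and Slc38a2 under 4, and Slc7a6os, Slc7a10 and Slc6a18 under 3. Slc7a7 and Slc7a3 passed under 2, Slc1a4 under 1 and Slc38a11 under 0.

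**Figure D5:**
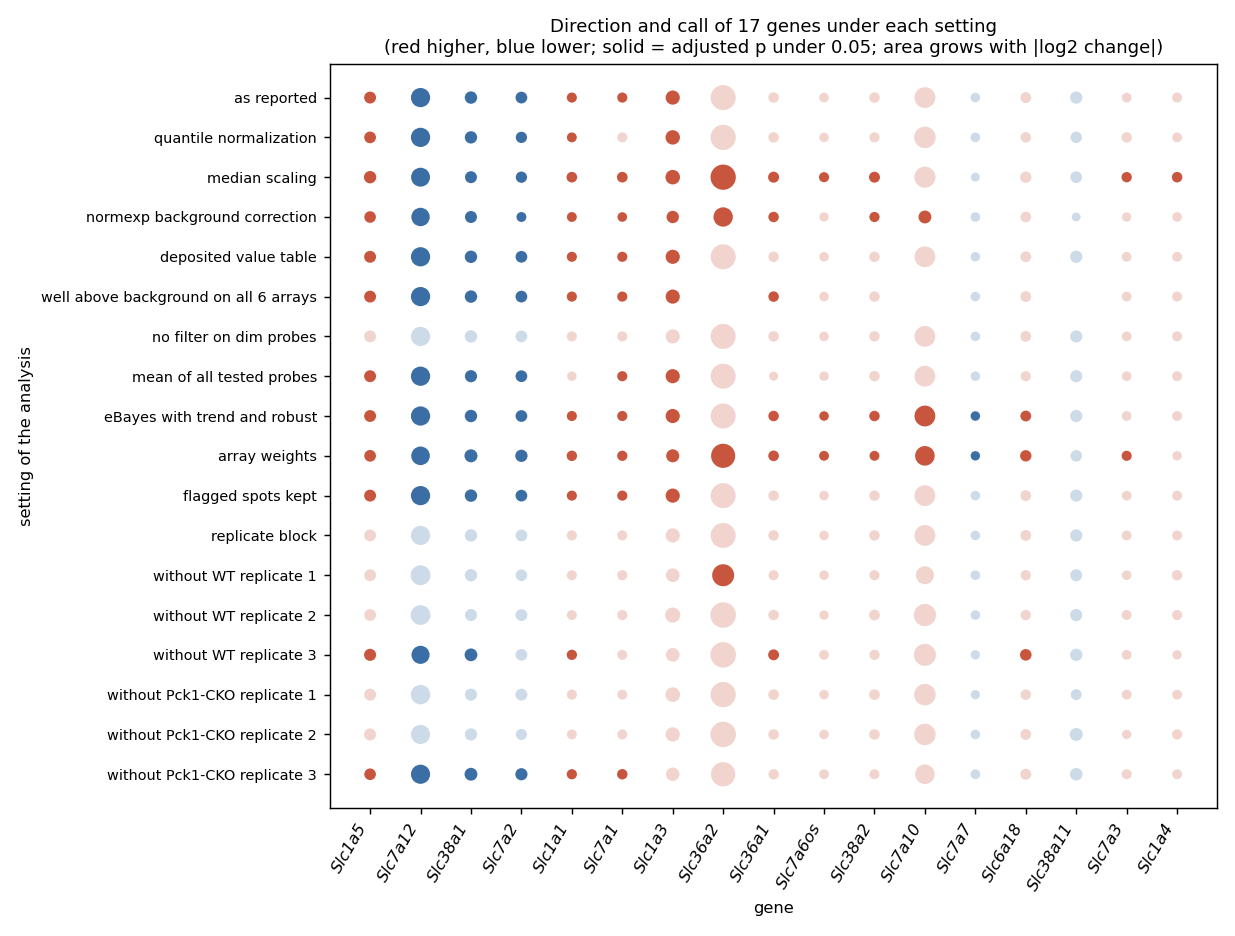
Direction and call of 17 genes (columns) as reported and under each of the 17 alternatives (rows), 1 dot per value. Red is higher and blue lower in Pck1-CKO, solid dots have an adjusted p under 0.05, and dot area grows with the size of the log2 change. No column changes colour. The rows without a filter on dim probes, with a replicate block and without WT 2, Pck1-CKO 1 or Pck1-CKO 2 hold no solid dot, and the row without WT 1 holds 1, for Slc36a2.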

How the data were processed

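Cy3-labelled total RNA of 6 whole-kidney samples was measured on 1-colour Agilent arrays, per the labels. The deposited scanner files hold intensity values of Agilent Feature Extraction 10.7.1.1, background-subtracted and detrended, with build mm9, per the file headers. The deposited value table is a linear ratio. Among values above 1, 100% lay within 1% of the probe's mean processed signal over 1 factor per array, so its scale and direction are settled. Median values per column were 0.104, 0.103 and 0.102 (WT arrays) and 0.099, 0.097 and 0.098 (Pck1-CKO arrays). The software that scaled it was not given in the sources used here.

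Log2 processed signals were taken, spots with outlier flags (46 to 94 per array) were left out, repeat spots were averaged per probe, and the array's own 75th percentile (528.9 to 583.1) was subtracted. The filter kept 38371 of 56605 probes, those well above background on 3 or more of the 6 arrays. RefSeq accessions of the GRCm38.p6 table named 34675 probes, and 21930 stayed unnamed. The brightest tested probe stood for a gene. The test was limma's moderated linear model (version 3.58.1, R 4.3.3), 2-sided, with Benjamini-Hochberg adjustment over 17136 genes and a threshold of 0.05, of which 743 were higher and 634 lower. Scaled to the array median, 2434 were higher and 560 lower. The code was tested on simulated data. Errors are standard errors, n = 3 per group, and the number of arrays limits the precision.

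The rule for members uses names alone, but it was proposed, and the lists, markers and alternatives were chosen, with earlier results of these data known, and lists are described by counts and medians without a test. Every member is named. Values per array are given for members past the threshold and for the 10 with the lowest p among the rest, and of each related list up to 3 genes past the threshold or the 1 with the lowest p. Slc38a3, Slc3a1, Slc6a19, Slc7a13, Cltrn, the fourth ATF4 pathway gene and those of that list with a negative change were named beside these. This was for their role or to complete a count. Cyp2a4, Kap and Acsm3 were likewise named to complete the counts of sex-biased genes. Alternatives changed the scaling, the background correction, the values used (scanner or value table), the dim-probe filter, the probe per gene, the variance model, weights, flags and the arrays included, or added a replicate block. Normexp (offset 50) ran on median signals, since no mean signals were at hand. Its values were then quantile scaled, so this alternative changed both the background correction and the scaling. A slide or scan block was not applicable with 1 slide.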

Additional observations from a re-analysis of the deposited data

How the results depend on the processing

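The counts are genes higher and lower in Pck1-CKO (743 and 634 as reported), then tested members of the set (4 and 3). With median scaling 2434 and 560 genes passed, and 10 members were higher, where the median of all genes shifted from 0.01 to 0.08. With normexp 8 members were higher. With a trended, robust variance 1682 and 1149 genes passed, and 9 members were higher. With array weights the counts were 3285 and 2614 genes, and 12 and 6 members. Slc7a6os, which is no transporter, was among the higher members with median scaling, trended variance and array weights (limma adjusted p = 0.0323, 0.0416 and 0.00971). With no filter on dim probes the counts were 61 and 81 genes and 0 and 0 members. Leaving out 1 array gave 16 to 779 genes higher and 9 to 806 lower, and 0 to 5 members higher and 0 to 3 lower. The only transporter past the threshold without WT 1 was Slc36a2. The cause of these shifts was not tested. Quantile scaling, the deposited value table, the filter on all 6 arrays, the mean of probes and flagged spots kept left the counts within 1.5 times. Slc7a1 no longer passed with quantile scaling, nor Slc1a1 with the mean of probes.

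With the replicate number as a block 3 genes were higher and 1 lower, and 0 transporters passed. The numbers are not said to pair the samples, and same-numbered arrays did not deviate together (correlations of -0.001, -0.115 and -0.023). Normexp gave smaller changes for several dim probes, among them Slc1a3, Slc1a6, Slc1a7, Slc7a2, Slc7a10, Slc36a2 and Slc38a11. For the dim probes of Slc7a5, Slc38a8 and Slc1a2 the changes grew in size, from -0.003, -0.03 and 0.07 to 0.11, 0.07 and 0.13. Slc3a1, Slc3a2, Slc38a6, Slc38a8 and Slc7a5, all near 0 as reported, changed sign with normexp.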
